A study of Mus musculus with 5 samples.

Results

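Adaptor genes through which natural killer (NK) receptors signal were compared between thymic natural killer T (NKT) cells of wild-type and IL15ko mice. The 5 genes were given by name, with earlier results of these data known: the adaptors Fcer1g, Tyrobp and Hcst, the kinase gene Syk and the Fc receptor gene Fcgr3. They are 5 of the 20009 genes named by a probe on the array, and 4 of them were among the 11990 genes bright enough to test. All mice were of the C57BL/6 background. The 3 samples of 1 group were wild-type, the 2 IL15ko samples were IL15-/- and so lacked interleukin-15, and the labels give no age or treatment. Each sample was made from 10 pooled thymi, in which T cells were enriched with magnetic beads and CD3e+ cells that bound a CD1d tetramer were then sorted by flow cytometry. Cells of this kind bear T cell receptors for lipids held by CD1d, and their RNA was measured on 1-colour Agilent arrays.

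ITAM-bearing adaptors are small membrane proteins that pair with receptors whose own tails cannot signal. When a receptor is bound, Src family kinases phosphorylate the tyrosines of the ITAM, and Syk or Zap70 docks there and passes the signal on. Fcer1g encodes the Fc receptor gamma chain and Tyrobp encodes DAP12, both of which carry ITAMs, while Hcst encodes DAP10, whose tail instead recruits PI3 kinase and Grb2. Fcgr3 encodes the low-affinity IgG receptor CD16, which needs the Fc receptor gamma chain to reach the cell surface. NK cells and the NK1.1+ subset of NKT cells use these adaptors, and interleukin-15 is a survival and maturation signal for both.

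Hcst and Tyrobp lie next to each other on chromosome 7, Fcer1g and Fcgr3 lie on chromosome 1 and Syk on chromosome 13. Of the 5 genes, 4 had an entry in the RefSeq promoter table for mouse build GRCm38.p6. The 250 bases before the start of the 2 matched genes that differed between the genotypes are shown, because these windows were searched for short motifs of factor families that act in NKT cells. Capitals mark matches to GGAAGT, a form of the motif bound by ETS family factors, and both runs are read 5′ to 3′ on the minus strand, at chr7:30419855-30420104 for Hcst and chr1:171234350-171234599 for Fcer1g.
Hcst: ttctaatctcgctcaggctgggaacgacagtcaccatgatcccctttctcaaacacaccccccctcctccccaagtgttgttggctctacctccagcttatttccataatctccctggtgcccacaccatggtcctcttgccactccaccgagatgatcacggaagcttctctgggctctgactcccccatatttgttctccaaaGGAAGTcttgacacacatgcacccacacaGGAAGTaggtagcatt
Fcer1g: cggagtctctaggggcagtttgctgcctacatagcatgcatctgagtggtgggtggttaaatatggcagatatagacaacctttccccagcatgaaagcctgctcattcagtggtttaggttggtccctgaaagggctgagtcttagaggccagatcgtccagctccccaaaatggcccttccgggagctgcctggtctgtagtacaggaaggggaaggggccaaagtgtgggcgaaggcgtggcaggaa
Hcst held 2 matches to GGAAGT, which began 45 and 16 bases before its start, and Fcer1g held 0. Over both strands, 19.7% of the 32851 promoters in the table held at least 1 match to GGAAGT. Neither run held TTCNNNGAA (STAT family, in 7.02% of promoters), TCACAC (T-box family, 12.3%) or ACCACA (RUNX family, 14.0%), of which the last 2 share the letters CACA and can overlap. A match is a description of letters only.

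Each gene had 1 probe with 1 spot on every array. Levels are given as the spot's signal in percent of the array's 75th percentile, taken over probes well above background on all 5 arrays. Probes differ in how brightly they report a transcript, so levels are compared between arrays and not between genes. Between 33.9% and 49.6% of the 55681 probes were well above background per array, with the lowest share on IL15ko 2, and no probe was saturated. Within a group, the robust SD of the log2 difference between arrays was 0.17 for wild-type 1 and 2, 0.34 and 0.38 for the other wild-type pairs and 0.38 for the IL15ko pair. The probe for Il15 itself was above background on 0 of 5 arrays, so it does not check the genotype labels in these cells. All 10 markers of T and NKT cells were above background on every array, and their log2 differences ran from -1.10 for Cd2 to 1.56 for Slamf6. Cd3e, the chain used for the sort, was at -0.05 ± 0.13 (limma SE).

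**Figure D1:**
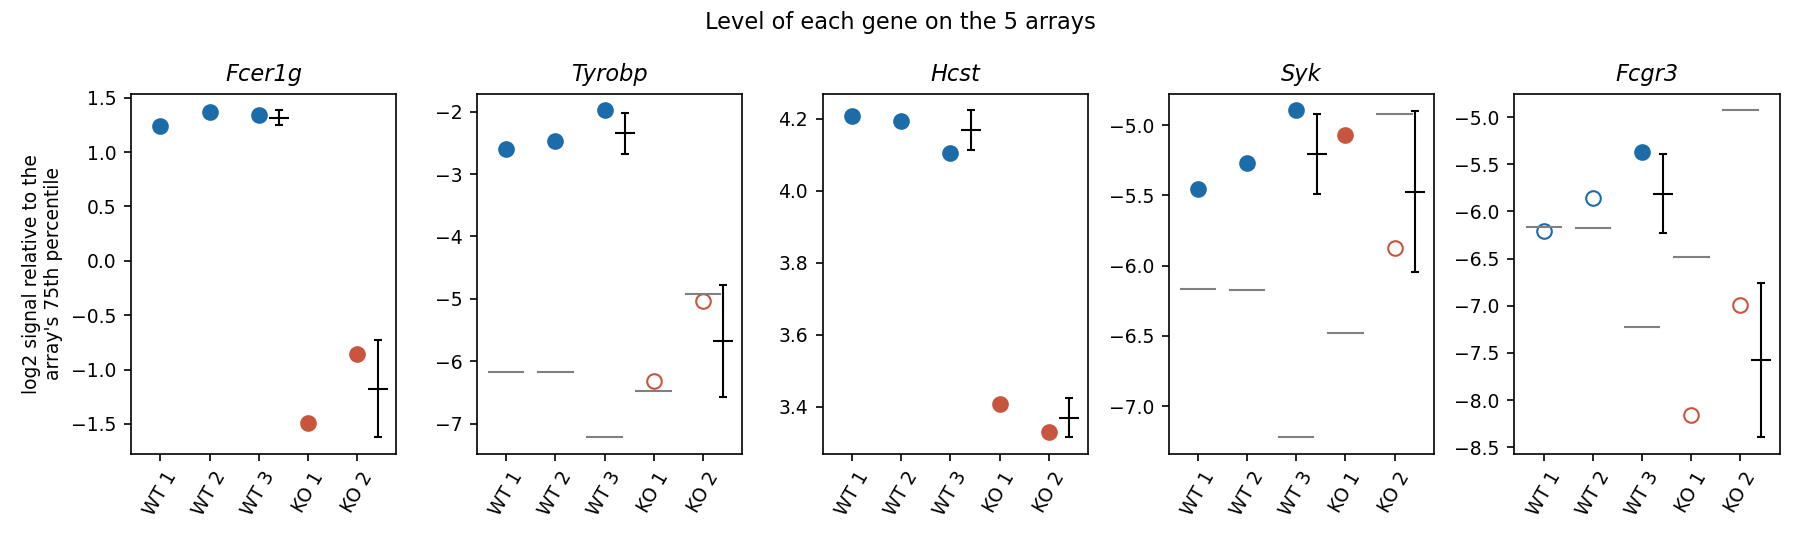
Level of each gene on the 3 wild-type (blue, WT) and 2 IL15ko (red, KO) arrays, as log2 of the signal relative to the array's 75th percentile. Each panel has its own axis. Filled points were well above background and open points were not, grey lines mark the lowest signal well above background on that array, and black bars are the mean ± SD of the group (n = 3 and 2). Wild-type and IL15ko points are apart for Fcer1g, Tyrobp and Hcst and overlap for Syk.

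The adaptor genes Fcer1g and Hcst were called lower in IL15ko NKT cells, and the kinase gene Syk was not called. Tyrobp was called lower as well, but its probe passed the filter through the wild-type arrays alone, so that call is a description. Fcer1g fell 5.63-fold and Hcst fell 1.74-fold, and both were measured on every array. With other processing or arrays left out, the Fcer1g call held in 16 of 19 alternatives and the Hcst call in only 10 of 19. Tyrobp fell to a level not above background on either IL15ko array, by at least 9.68-fold as a mean bound and at least 5.99-fold against IL15ko 2 alone. Fitted Tyrobp values were smaller than this bound with other processing, at -2.59 (log2) with the authors' deposited table and -1.42 with normexp background correction, where the call was lost (limma adjusted p = 0.23).

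At an adjusted p under 0.05 (limma, Benjamini-Hochberg over all 11990 genes tested), 3 of the 4 tested genes were called lower and 0 higher, where 3.58% of all tested genes were called lower and 3.75% higher. Tyrobp entered the test through its wild-type arrays alone. Among genes well above background on at least 1 array of each group, 2 of the remaining 3 were called lower, against 3.18% of all such genes. The groups did not overlap, with IL15ko lower, in Fcer1g, Tyrobp and Hcst, which holds for 22.1% of all tested genes. In RNA from a sorted population, fewer cells that express a gene and less RNA per cell cannot be told apart.

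Fcer1g, the Fc receptor gamma chain gene, stood at 236, 259 and 254% of the 75th percentile on wild-type arrays 1, 2 and 3, and at 35.6 and 55.1% on IL15ko arrays 1 and 2. Every wild-type array was above every IL15ko array, and the nearest arrays of the groups were 2.10 log2 units apart. The means were 249 ± 12.1% (SD, n = 3) and 45.3 ± 13.8% (SD, n = 2), and all 5 values were well above background. The log2 difference was -2.49 ± 0.22 (limma SE), a 5.63-fold lower level (95% interval 3.85 to 8.22) with a limma adjusted p of 0.0092. Its log2 difference was number 56 from the lowest of the 11990 tested genes. Without wild-type 1 the log2 difference was -2.53 and the limma adjusted p was 0.0616.

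Tyrobp, the DAP12 gene, was at 16.5, 18.2 and 25.5% on the wild-type arrays and at 1.26 and 3.05% on the IL15ko arrays. It was well above background on 3 of 3 wild-type arrays and on 0 of 2 IL15ko arrays, so its IL15ko level is only bounded from above. The wild-type mean was 20.1 ± 4.79% (SD, n = 3), and the signal measured on the IL15ko arrays averaged 2.15 ± 1.26% (SD, n = 2). Against the higher of the probe's signal and the lowest signal well above background on each IL15ko array, the level was at least 9.68-fold lower. That bound is a mean over both IL15ko arrays, and it is 15.7-fold for IL15ko 1 alone and 5.99-fold for IL15ko 2 alone. The fitted log2 difference was -3.33 ± 0.42 (limma SE), with a limma adjusted p of 0.0187. This fitted value is no bound, and since the probe passed the filter through the wild-type arrays alone, its p-value is given as a description. With a single IL15ko array the fitted log2 difference was -2.69 (IL15ko 1 left out) or -3.97 (IL15ko 2 left out). The limma adjusted p rose to 0.0835 when wild-type 1 was left out and to 0.074 when wild-type 2 was.

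Hcst, the DAP10 gene, was at 1846, 1831 and 1720.2% on the wild-type arrays and at 1062 and 1006% on the IL15ko arrays. The groups were apart by 0.70 log2 units at their nearest arrays, and the arrays within each group were close to each other. The means were 1799 ± 69.0% (SD, n = 3) and 1034 ± 39.0% (SD, n = 2). The log2 difference was -0.80 ± 0.12 (limma SE), a 1.74-fold lower level (95% interval 1.41 to 2.15) with a limma adjusted p of 0.0272. The size moved little, from -0.84 to -0.74 over 19 alternatives, but the call held in only 10 of them. It was lost without wild-type 1 (limma adjusted p = 0.145), wild-type 2 (0.123), IL15ko 1 (0.066) or IL15ko 2 (0.105).

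Fcgr3, the gene for the IgG receptor CD16, was at 1.36, 1.72 and 2.42% on the wild-type arrays and at 0.351 and 0.783% on the IL15ko arrays. Only wild-type 3 was well above background, so the gene was not tested, and no fold or difference is given. Its relatives Fcgr1, Fcgr4 and Fcgr2b, which encode other IgG receptors, were above background on 0 of 5 arrays. So was Ncr1, which encodes the NK receptor NKp46, a partner of the Fc receptor gamma chain.

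Syk, the kinase that docks on phosphorylated ITAMs, was dim in both genotypes, at 2.28, 2.59 and 3.37% on the wild-type arrays and at 2.98 and 1.70% on the IL15ko arrays. The IL15ko values enclosed 2 of the wild-type values, so the groups overlapped. Its means were 2.75 ± 0.561% (SD, n = 3) and 2.34 ± 0.901% (SD, n = 2), and it was well above background on 3 of 3 wild-type arrays and on IL15ko 1 alone. The log2 difference was -0.27 ± 0.30 (limma SE), with a limma adjusted p of 0.595. The 95% interval of the ratio of wild-type to IL15ko ran from 0.709 to 2.04, and it rests in part on the IL15ko 2 signal, which was not above background. Without IL15ko 2 the log2 difference was 0.14. Zap70, the Syk relative that T cells use at the T cell receptor, was at 1905, 1965 and 1983% and at 1999 and 1948%, with a log2 difference of 0.02 ± 0.12 (limma adjusted p = 0.939).

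Ratios within each array show how unequally the genes differed between the genotypes. These pairs were chosen after the values were seen and carry no test. The log2 ratio of Fcer1g to Hcst was lower in IL15ko by a mean of -1.69, with an SD of 0.11 over the wild-type arrays and 0.50 over the IL15ko arrays. The log2 ratio of Tyrobp to Hcst differed by -2.53, where the IL15ko value of Tyrobp is a signal not above background. Set against Cd3e, a chain of the T cell receptor complex, Fcer1g differed by -2.44 and Hcst by -0.75. The groups did not overlap in any of these 4 ratios, while the log2 ratio of Syk to Zap70 differed by -0.28 and overlapped.

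**Figure D2:**
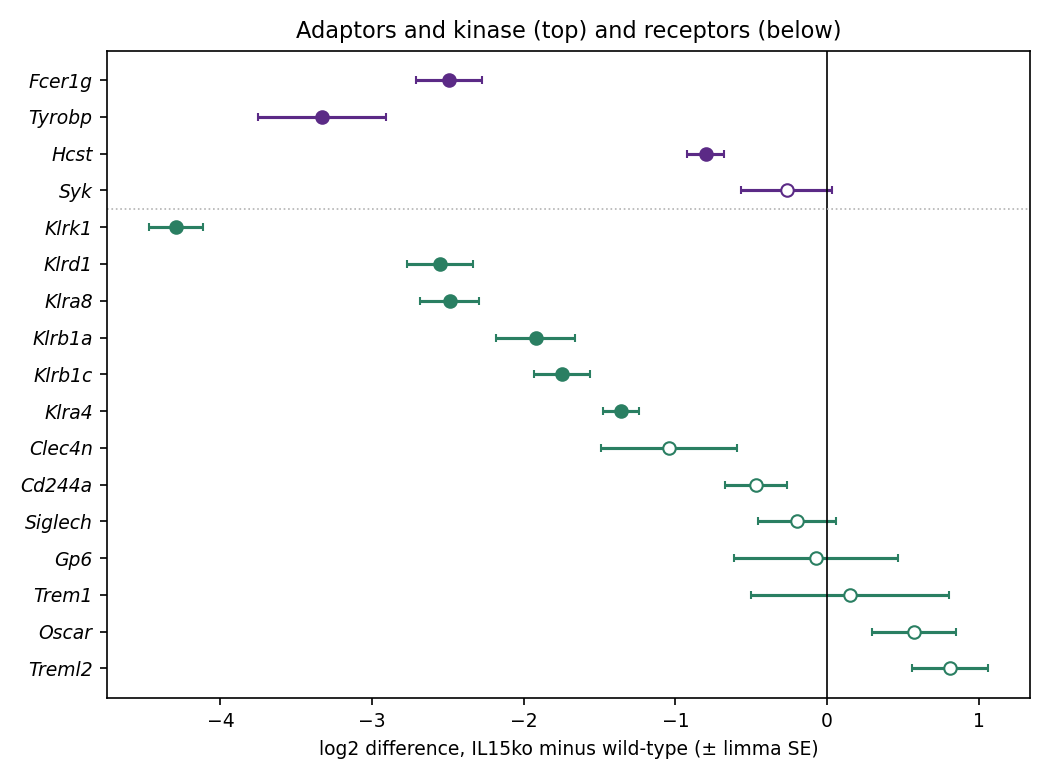
The log2 difference (IL15ko minus wild-type, ± limma SE) of the 4 tested adaptor and kinase genes (purple) and of 13 tested receptor genes (green). Filled points had a limma adjusted p under 0.05. The called genes all lie left of 0, from Klrk1 at -4.29 to Hcst at -0.80, and for Tyrobp and Klrk1 the fitted value is no bound.

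The list of receptors linked to these adaptors, which counts the shared chain gene Klrd1, included 6 called lower and 0 higher among 13 tested. Of all tested genes, 3.58% were called lower. Leaving out 3 genes not above background in IL15ko (Klrk1, Clec4n and Gp6), it was 5 of 10, against 3.18% of all such genes, with a median log2 difference of -0.91 against 0.03. The list held 31 genes, of which 29 had a probe and 15 were not above background on any array, among them Trem2 and Clec5a. Trem1, Treml2, Siglech and Oscar of the same list were above background on every array. Klrk1, which encodes NKG2D, the receptor that signals through DAP10, was at 23.2, 23.7 and 30.0% on the wild-type arrays and at 1.19 and 1.41% on the IL15ko arrays. It was not above background on either IL15ko array and was at least 12.8-fold lower as a mean bound, or 7.73-fold against IL15ko 2 alone. The fitted log2 difference was -4.29 ± 0.18 (limma adjusted p = 0.00305), for a probe that passed the filter through the wild-type arrays alone. Over 18 alternatives the fitted value ran from -4.42 to -1.69, which at its smallest falls short of both bounds. Within each array the log2 ratio of Hcst to Klrk1 was higher in IL15ko by 3.50 as measured. The DAP12-coupled receptors Klra8 (Ly49H) and Klra4 (Ly49D) also fell. Klra8 was at 1097, 1059.9 and 1176% and at 164 and 238%, a log2 difference of -2.49 ± 0.20 (limma adjusted p = 0.00852). Klra4 was at 238, 238 and 248% and at 92.0 and 96.2%, a log2 difference of -1.36 ± 0.12 (limma adjusted p = 0.0094). Genes of the Ly49 family are near-identical in places, and whether their probes also read relatives was not tested.

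Klrd1, which encodes CD94, the common chain of the NKG2 receptors, fell by 2.55 ± 0.22 on the log2 scale (limma adjusted p = 0.00911). Klrc2, an NKG2 gene on the list, had no probe, so whether the Klrd1 value concerns a receptor coupled to these adaptors was not tested. Klrb1c, the gene for NK1.1, and its close relative Klrb1a both encode receptors that use the Fc receptor gamma chain. Klrb1c was at 525, 492 and 479% and at 125 and 176%, a log2 difference of -1.75 ± 0.18 (limma adjusted p = 0.0139). Klrb1a had a log2 difference of -1.92 ± 0.26 (limma adjusted p = 0.0214). The 7 tested receptor genes that did not pass were Cd244a, Trem1, Treml2, Clec4n, Siglech, Oscar and Gp6, at log2 differences of up to 0.81 for Treml2. Clec4n and Gp6 were not above background on either IL15ko array, so no fold is given for them. Cd244a is mainly known to signal through SAP family adaptors rather than through these. Leaving out wild-type 1 brought the count of receptor genes called lower to 1, and leaving out wild-type 2 brought it to 3. It lay between 5 and 7 when any other array was left out.

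Among 6 tested Fc receptors of other kinds, 0 were called in either direction (limma), against 3.58% lower and 3.75% higher among all tested genes. Their median log2 difference was -0.05, and 0 had an unadjusted limma p under 0.05. The 5 tested ITAM-bearing chains of the antigen receptors also gave 0 calls, with a median of -0.26 and 1 unadjusted limma p under 0.05, that of Cd79b. Unadjusted counts for both lists are a description only, as the share of all tested genes at that threshold was not computed. Cd247, the zeta chain of the T cell receptor complex and a relative of the Fc receptor gamma chain, was at 26.4, 28.2 and 53.2% and at 41.8 and 14.1%. Its groups overlapped, and the log2 difference was -0.49 ± 0.55 (limma adjusted p = 0.595). Cd3d and Cd3g had log2 differences of -0.26 and -0.77 and Cd79b, a chain of the B cell receptor, of 0.92, none with a limma adjusted p under 0.05.

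Of 11 tested kinases that act before or beside Syk, 2 were called lower and 0 higher, against 3.58% lower and 3.75% higher among all tested genes. Over the 10 measured in both groups the median log2 difference was 0.01, against 0.03 for all such genes. Fgr, a Src family kinase, had a log2 difference of -1.36 ± 0.16 (limma adjusted p = 0.0172) and was above background on 1 of 2 IL15ko arrays. Txk, a Tec family kinase, had one of -1.17 ± 0.13 (limma adjusted p = 0.0164). Lck, the main Src family kinase of T cells, was at 0.01 ± 0.12 (limma adjusted p = 0.973). Lyn and Yes1, further Src family kinases, were above background on 0 of 5 arrays.

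Downstream of the kinases, 3 of 35 tested genes for scaffolds, lipid kinases, phospholipases and exchange factors were called lower and 0 higher, against 3.58% and 3.75% of all tested genes. Over the 34 measured in both groups 2 were called lower, with a median log2 difference of -0.25. Pik3cd, the PI3 kinase catalytic subunit delta, belongs to the lipid kinases that DAP10 recruits. It was at 370, 354 and 387% and at 239 and 235%, a log2 difference of -0.64 ± 0.12 (limma adjusted p = 0.0429), and this call held in 5 of 19 alternatives. Pik3ap1, which encodes the PI3 kinase adaptor BCAP, was above background on 3 of 3 wild-type and 0 of 2 IL15ko arrays, so it passed the filter through wild-type alone. It was at least 2.56-fold lower as a mean bound (limma adjusted p = 0.0103) and 1.49-fold against IL15ko 2 alone. Its call was lost with a floor at the lowest signal above background (limma adjusted p = 0.149). Over 18 alternatives its fitted log2 difference ran from -2.98 to -0.22, which at its smallest falls short of both bounds. Malt1, a protease of the pathway to NF-kappa-B, had a log2 difference of -1.09 ± 0.12 (limma adjusted p = 0.0164).

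Genes listed as inhibitors of ITAM signalling gave 3 called lower and 0 higher among 25 tested, against 3.58% and 3.75% of all tested genes. Whether each listed gene acts as an inhibitor in these cells was not tested. Over the 24 measured in both groups the median log2 difference was -0.20. Ubash3a, which encodes a suppressor of T cell receptor signalling, was at 10.6, 10.9 and 10.6% and at 2.63 and 2.59%, a log2 difference of -2.04 ± 0.12 (limma adjusted p = 0.00603). It was above background on 1 of 2 IL15ko arrays. Ptpn22 and Ptprj, both tyrosine phosphatases, had log2 differences of -0.99 ± 0.15 (limma adjusted p = 0.0273) and -1.30 ± 0.19 (limma adjusted p = 0.0232).

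**Figure D3:**
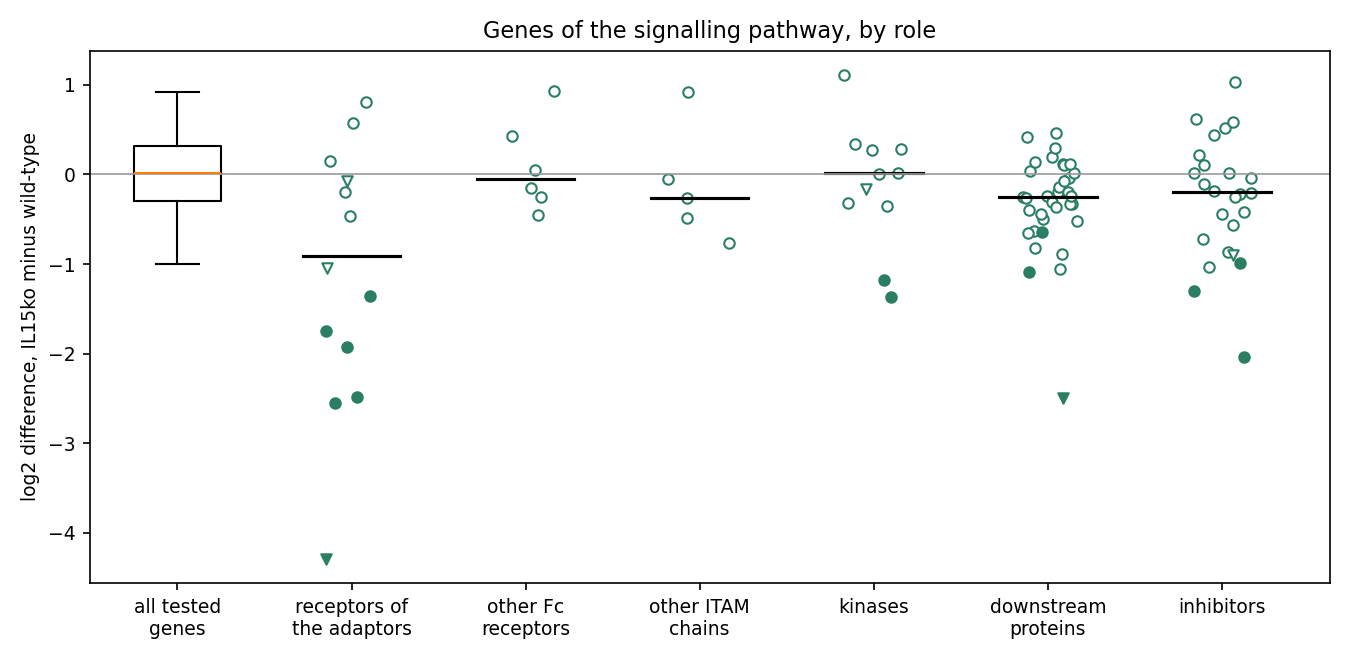
The log2 difference (IL15ko minus wild-type) of each tested gene of the pathway lists, grouped by role, beside a box plot of all 11990 tested genes (box, quartiles; whiskers, 5th and 95th percentiles). Triangles are genes not above background on any array of 1 group, filled symbols had a limma adjusted p under 0.05, and black lines are medians of the circles. The 14 called genes all lie below 0, and 6 of them are receptors.

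Over these 6 lists, 14 of 95 tested genes (14.7%) were called lower and 0 higher, where 3.58% of all tested genes were called lower and 3.75% higher. Over the 89 genes measured in both groups 12 were called lower (13.5%, against 3.18% of all such genes), with a median log2 difference of -0.22 against 0.03. At an unadjusted limma p under 0.05 the counts were 27 lower and 9 higher. The share of all tested genes at that threshold was not computed, so these 2 counts are a description only. Leaving out a wild-type array gave 1 (the first), 5 (the second) or 15 (the third) genes called lower, and leaving out an IL15ko array gave 11 (the first) or 6 (the second). Without wild-type 1 the kinases, downstream genes and inhibitors each held 0 called genes, and without IL15ko 2 they held 0, 0 and 1. With wild-type 2 left out these counts were 0, 1 and 1, and with IL15ko 1 left out 1, 1 and 3, where Cd3g among the antigen receptor chains was also called lower.

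The genes nearest to each adaptor gene in pattern were found by the smallest root mean square difference of log2 values over the 5 arrays, each gene being centred on its own mean. Nearest to Fcer1g were Klra8 at 0.0724, Klra9, another Ly49 gene, at 0.122 and Neurl3 at 0.145. Nearest to Tyrobp were Fgl2 at 0.125, Tjp1 at 0.146 and Kcnj8 at 0.156. For Hcst they were Pbxip1, Ifi208 and Nsmaf, for Syk Gpaa1, D030028A08Rik and Mgat4b, and for the dim Fcgr3 Sspo, Tbc1d2 and Rnf122. These 5 points lie in 2 groups, and no test was made of the likeness.

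Of the genes beside them on the chromosomes, taken as the 2 nearest named genes with a probe on either side, none other than Tyrobp and Hcst themselves was called by limma. Adamts4, Fcgr2b and Fcgr4 were not above background on any array and were not tested. Nfkbid and Lrfn3, which flank the Tyrobp and Hcst pair, both had log2 differences of 0.40, with limma adjusted p-values of 0.322 and 0.63. Beside Fcer1g, Apoa2 had a log2 difference of 0.36. Beside Syk, Diras2, above background on 2 of 5 arrays, had one of 0.24 and Auh one of -0.29. The largest differences among the other neighbours were -0.62 for Nfil3, near Syk, and 0.61 for Aplp1, near Hcst (limma adjusted p = 0.131 and 0.0851).

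Markers of other cells that the sort could hold were summed on each array. The 10 listed NK and innate lymphoid cell markers summed to between 2119.8 and 2287% of the 75th percentile on the wild-type arrays and to 311 and 413% on the IL15ko arrays. The wild-type sums came mostly from Klra8 and the granzyme gene Gzma, which was at 623, 596 and 614% and at 11.8 and 11.6%. Of the 7 tested, Klra8, Klra4, Klre1 and Gzma were called lower, where 3.58% of all tested genes were. NKT cells are also known to express Ly49 receptors and granzymes. Ncr1, the defining NK cell receptor gene, was above background on 0 of 5 arrays, and Eomes, the NK cell transcription factor gene, on 1 wild-type array. The part of NK cells in the fall of Fcer1g, Tyrobp and Hcst was not tested.

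Fcer1g, Tyrobp and Syk are also known as genes of myeloid cells. The 12 monocyte and macrophage markers with a probe summed to 471 to 644% on the wild-type arrays and to 529 and 1123% on the IL15ko arrays. Most of each sum was Itgam, so the sums say little about the other markers. Of the 12 markers, 7 were not above background on any array, among them Lyz2, Adgre1 and C1qa. Csf1r, Itgam and Ccr2 were above background on every array. Csf1r had a log2 difference of -2.29 ± 0.46 (limma adjusted p = 0.0509), Itgam one of 0.70 and Ccr2 one of 0.22. Granulocyte markers summed to 1767 to 2989% and to 1722 and 1959.7%, mostly from Csf3r, and S100a9 alone was called lower, at least 3.26-fold as a mean bound (limma adjusted p = 0.00383). S100a9 passed the filter through wild-type alone, and its bound was 1.90-fold against IL15ko 2 alone. Its call was lost with a floor at the lowest signal above background (limma adjusted p = 0.0904). Over 18 alternatives its fitted log2 difference ran from -3.88 to -0.71, which at its smallest falls short of both bounds. Dendritic cell markers summed to 3062 to 4805% and to 3035 and 4087%, mostly from Siglech, while Itgax, Flt3, Xcr1 and Clec9a were above background on 0 of 5 arrays and Cd74 was called higher by limma.

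B cell markers summed to 24.0 to 27.9% and to 37.6 and 37.8%, with Ms4a1, Cd79a, Pax5 and Ebf1 above background on 0 of 5 arrays. Cd79b, Cd22 and Blk were above background on every array, at log2 differences of 0.92, -0.03 and 1.11, none of them called by limma. Mast cell and basophil markers summed to 6.09 to 14.2% and to 8.60 and 13.8%, with Fcer1a and Cpa3 above background on 0 of 5 arrays. Tpsb2 was above background on every array, at a log2 difference of -0.02. Immature thymocyte markers summed to 54.9 to 64.1% and to 50.8 and 60.7%, with Rag1, Rag2 and Ptcra above background on 0 of 5 arrays. Dntt and Cd1d1 were above background on every array, at log2 differences of 0.08 and -0.16. Gamma-delta T cell markers, of which 3 of 6 had a probe, summed to 175 to 204% and to 407 and 310.5%, and Cd163l1 was called higher by limma. Markers of T and NKT cells summed to 9781 to 10177% and to 10763 and 10183%. Among the 10 tested, Cd2 was called lower and Zbtb16, Cd5 and Slamf6 were called higher by limma. Of all tested genes, 3.58% were called lower and 3.75% higher.

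**Figure D4:**
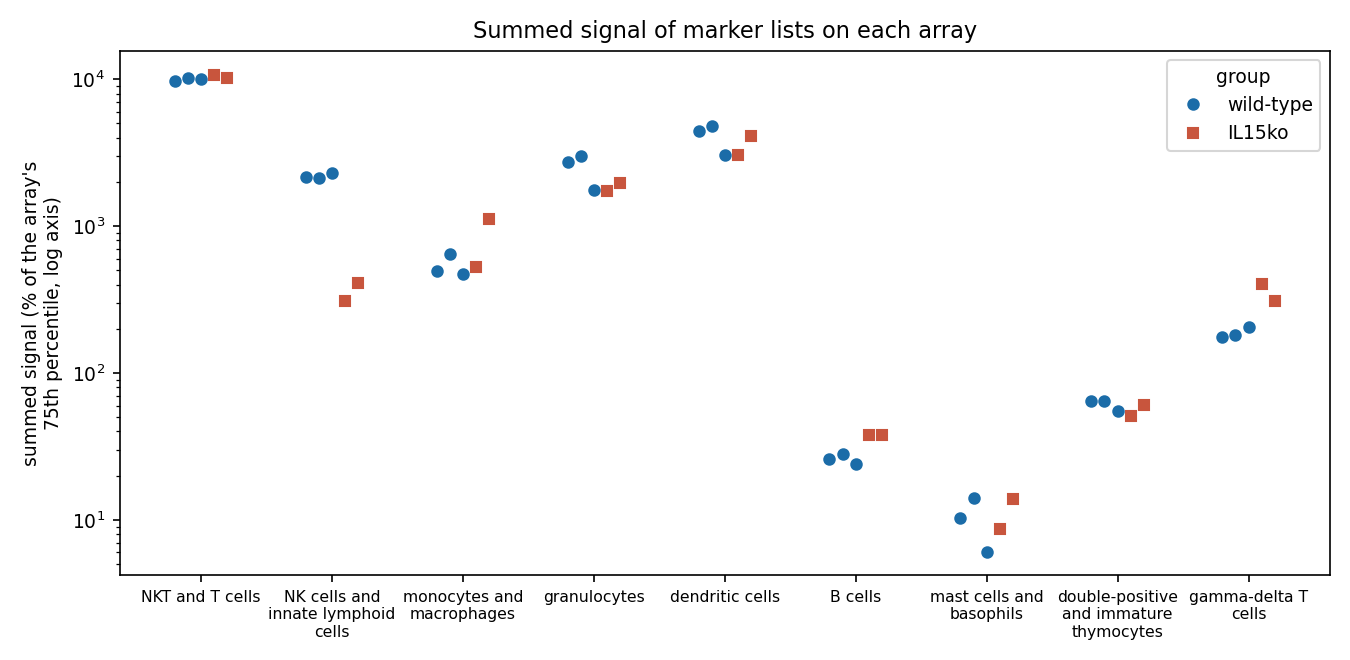
Summed signal of each marker list on the 3 wild-type (circles) and 2 IL15ko (squares) arrays, in percent of the array's 75th percentile, on a log axis. NK and innate lymphoid markers are lower on both IL15ko arrays (311 and 413%) than on any wild-type array (2119.8 to 2287%). The sums of the monocyte, granulocyte and dendritic cell lists overlap between the genotypes. These 3 sums come mostly from Itgam, Csf3r and Siglech and say little about the other markers on the lists. Klra8 and Gzma make up most of the wild-type sums of the NK list.

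**Figure D5:**
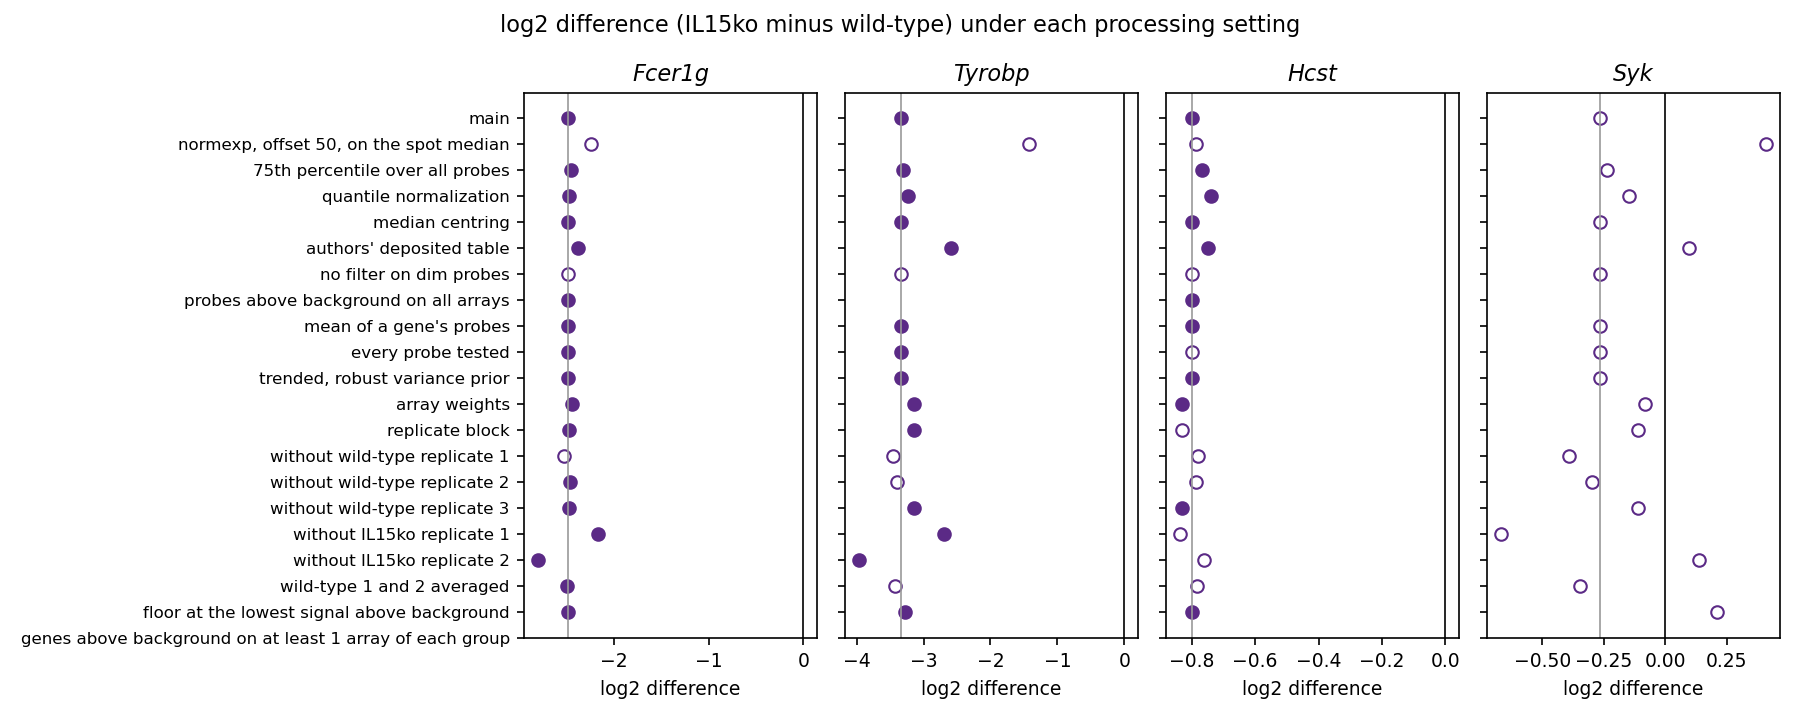
The log2 difference (IL15ko minus wild-type) of the 4 tested genes under each processing setting, with the reported value as a grey line and 0 as a black line. Filled points had a limma adjusted p under 0.05. Fcer1g, Tyrobp and Hcst stay below 0 under every setting plotted, and Syk lies on either side of 0.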

How the data were processed

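The authors deposited scanner output of Agilent Feature Extraction 10.7.1.1, per the file headers, which gives intensities of spots on a linear scale. Its processed signal has background removed within an array, with no scaling across arrays. Limma is named in the submitters' processing notes, without settings, and no coordinates were taken from the arrays' own build. A deposited value table, also of linear intensities, was found on bright spots to be the median signal less the local background, shifted by a constant for each array. Which software setting gives that constant stays unknown, and its column medians were 25.2, 22.6 and 26.0 (wild-type 1 to 3) and 24.4 and 15.7 (IL15ko 1 and 2).

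From the deposited intensities, processed signals were put on the log2 scale and shifted so that the 75th percentile was 0 on every array, a percentile computed from the 18517 probes that stood well above background on each of the 5 arrays. Control and outlier spots were left out. Accessions in the files were matched without versions to the RefSeq genes of GRCm38.p6, which named 26425 of 55681 probes, 0 of them with several symbols, and left 29256 unnamed. The brightest probe stood for a gene, and genes whose probe passed the scanner's background test on 2 or more arrays were tested. The comparison was made in R 4.3.3 with limma 3.58.1 (lmFit, eBayes), with genotype as the only term, on 3 residual and 2.28 prior degrees of freedom, at a Benjamini-Hochberg adjusted p of 0.05. The fit was tested on simulated data. A rule named the 5 genes, their relatives, up to 6 called genes per list and direction, the 3 genes nearest in pattern and the 2 neighbours on either side. Genes and lists were chosen with earlier results of these data known. The labels do not say that replicates came from separate pools, so the p-values cover the spread among these samples and no more, and that spread may be technical. The number of arrays limits the precision, and an exact permutation test of 3 against 2 cannot go below a two-sided p of 0.1. All 5 arrays shared 1 slide and 1 scan time, so neither could be tested as a batch. Alternatives changed the background correction, scaling, filter, probe choice, variance prior, array weights, replicate block and the arrays used. Protein sequences were not used here.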

Additional observations from a re-analysis of the deposited data

How the results depend on the processing

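Fcer1g, Tyrobp and Hcst kept a lower IL15ko level under all alternatives run on them, 19 for Fcer1g and Hcst and 18 for Tyrobp, and the limma call held in 16, 13 and 10 of these. With no filter on dim probes, 20009 genes were tested. The log2 differences were then -2.49, -3.33 and -0.80, with limma adjusted p-values of 0.0813, 0.119 and 0.163. The values of each gene were unchanged, so the standard errors rose through the variance prior that all tested genes share. How much of the rise in adjusted p came from that prior and how much from the number of genes was not tested. Normexp background correction at an offset of 50 was added after seeing the data. It gave log2 differences of -2.24, -1.42 and -0.78 (limma adjusted p = 0.0538, 0.23 and 0.0957) for Fcer1g, Tyrobp and Hcst. The median of all tested genes shifted to 0.22 (log2) with normexp, and the cause was not tested. Syk turned to 0.41 with normexp and 0.10 with the authors' deposited table, the cause not tested. It was at 0.21 with a floor at the lowest signal above background and 0.14 without IL15ko 2, and was called in 0 of 18 alternatives. On IL15ko 2 the Syk signal was 1.70%, not above background, and the floor was 3.29%. That floor put IL15ko 2 above wild-type 1 and 2, at 2.28 and 2.59%. Fcgr3 has no fold to recompute. Testing every probe left Hcst at -0.80 (limma adjusted p = 0.0627).

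Leaving out 1 array at a time gave log2 differences of -2.81 to -2.18 for Fcer1g, -3.97 to -2.69 for Tyrobp, -0.84 to -0.76 for Hcst and -0.67 to 0.14 for Syk, and 0 to 3 of the 5 genes called lower. With 1 IL15ko array left, that array is assumed to vary like the wild-type arrays. Averaging wild-type 1 and 2, the closest pair, gave -3.42 for Tyrobp (limma adjusted p = 0.0684), -0.78 for Hcst (limma adjusted p = 0.125) and 1 of the 5 genes called lower. With normexp or no filter, 0 of the 5 were called.

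Over all genes, 879 were called. Among the 11558 genes above background on at least 1 array of each group, a filter added after seeing the data, 813 were called, 2 of them adaptor genes. The count over all genes was 1 with normexp, 5 with no filter, 1516 with a trended, robust variance prior, 96 with wild-type 1 and 2 averaged, and 9 to 777 with 1 array left out. Leaving out the first or second wild-type array gave 9 or 103, and the first or second IL15ko array 336 or 191. With the replicate number as a block it was 398, and Hcst was at -0.83 (limma adjusted p = 0.0747). The labels do not state that the replicate numbers pair the samples, so no pairing was assumed. Deviations from the group means correlated at -0.13 for the arrays numbered 1 and 0.21 for those numbered 2. With 2 IL15ko arrays, the deviations of 1 are the negative of the other's, so these correlations cannot decide the pairing. Only 3 of the 5 genes were above background in IL15ko on at least 1 array. A slide block was not run, as all arrays shared 1 slide, nor normexp on mean signals, as the spot median was used in its place.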
